A study of Mus musculus with 653 samples.

Results

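Cells of the E13.5 mouse liver that were sorted as Lgr5-GFP+ were compared with cells of the same stage sorted without regard to GFP, called bulk. The members were chosen by the labels alone (stage E13.5, sort Lgr5-GFP+ or bulk), which gave 36.6% of the 653 cells of the series: 80 Lgr5-GFP+ cells, and bulk cells in 5 library pools of 34, 34, 33, 34 and 24 cells. Each cell is 1 sample, sequenced as a library of its own with the Smart-seq2 protocol, in which the cDNA of a single cell is amplified without molecular identifiers. Embryos of both sorts came from Lgr5-EGFP-IRES-creERT2 males, kept on C57BL/6, and MF1 females. The allele places EGFP and a tamoxifen-inducible Cre at the *Lgr5* locus, and no tamoxifen is named for these cells. Embryos were scored for GFP before their livers were digested with enzymes and sorted, and the labels do not give the genotype of the embryos behind the bulk cells. According to the methods, both sorts were gated as Liv2+, a surface antigen of hepatoblasts, and as CD31- and CD45-, to keep out endothelium and blood cells, and only the Lgr5-GFP+ sort was gated on GFP in addition. The labels call all cells liver hepatoblast cells.

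Lgr5 is a receptor for R-spondins that strengthens Wnt signalling and marks stem cells of several epithelia. At mid-gestation the liver is the main site of blood formation: hepatoblasts, the common progenitors of hepatocytes and cholangiocytes, lie among large numbers of maturing erythroid cells, which ripen around central macrophages. Sinusoidal endothelium, stellate and other mesenchymal cells, and blood progenitors make up the rest of the organ.

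The labels spread the cells over 5 library pools, each with cells of both sorts. The methods name several sorting experiments and biological replicates, but the labels tie no pool to them and name no animal or litter. Each of the Lgr5-GFP+ and bulk sorts was therefore treated as 1 sample, no test between them was made, and a pool with the same sign was not counted as a replicate. Pools 1 to 5 held 13, 27, 19, 14 and 7 of the Lgr5-GFP+ cells. Reads on genes ranged from 537264 to 2246344 per Lgr5-GFP+ cell (median 1144010) and from 566705 to 2131195 per bulk cell (median 1092637). The median number of detected genes was 5035 and 5546. Pool 2 gave the lowest medians in both sorts, 3662 and 4229 genes. No 2 cells had identical counts. Intervals given below are exact 95% intervals, and the limit given beside a share of 0 is that of 3 cells of the total. Both cover counting error only.

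The hepatoblast list was carried by few cells of either sort, against the label. A cell was counted as carrying a gene list when it had more than 10 reads on at least 3 genes of the list. The hepatoblast list, with *Afp*, *Alb*, *Ttr* and apolipoproteins, was carried by 1 of 80 Lgr5-GFP+ cells (1.25%, 0.0316 to 6.77) and by 2 bulk cells (1.26%, 0.153 to 4.47). *Alb*, which encodes the main plasma protein of hepatocytes, passed 10 reads in 2 and 3 cells, and *Afp*, its fetal relative, in 2 cells and 1 cell. *Hnf4a*, a transcription factor of the hepatocyte lineage, passed 10 reads in 0 cells of either sort. Single genes of the list were found more often in Lgr5-GFP+ cells: at least 1 of them passed 10 reads in 27 of 80 Lgr5-GFP+ cells (33.8%, 23.6 to 45.2) and in 6 bulk cells (3.77%, 1.40 to 8.03). Most of these were cells with *Apoa2*, an apolipoprotein, which passed 10 reads in 23 and 3 cells and had no call by the rule given below (a log2 difference of 0.73, and -4.21 in pool 5). Of the 23 cells, 11 were among the cells led by mesenchyme genes and 8 among those without a leading list, as these are described below. The biliary list was carried by 0 of 80 cells, which allows a share of up to 3.75%, and by 0 bulk cells, which allows up to 1.89%. *Trf*, *Spp1* and *Onecut1* are listed at 0 in every cell and add nothing to these counts. Of 7 measured hepatoblast genes, *Fgb*, a fibrinogen chain, met the rule for a higher gene that is given below, at 1.75 and 0.118 RPM in Lgr5-GFP+ and bulk cells, but it passed 10 reads in 0 cells. That rule was met by 8.78% of all measured genes. The sorts are therefore called by their gate and not by a cell type.

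The sorts differed most in their erythroid content. The erythroid list of 20 genes, with the transcription factors *Gata1* and *Klf1*, the erythropoietin receptor *Epor* and proteins of the red cell membrane, was carried by 88.7% of bulk cells (82.7 to 93.2) and by 10 of 80 Lgr5-GFP+ cells (12.5%, 6.16 to 21.8). By pool, it was carried by 32 of 34, 25 of 34, 29 of 33, 33 of 34 and 22 of 24 bulk cells and by 0 of 13, 2 of 27, 3 of 19, 3 of 14 and 2 of 7 Lgr5-GFP+ cells. No Lgr5-GFP+ pool reached the share of any bulk pool. Of the 10 Lgr5-GFP+ cells, 7 also carried another of the lists used to sort the cells into kinds, against 20 of the bulk cells that carried the erythroid list, and 4 of the 10 carried the endothelium list against 1 bulk cell. No doublet caller was run, and the part of cell doublets in these counts was not tested.

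Taken over all pools, the mesenchyme, endothelium and macrophage lists were carried by larger shares of Lgr5-GFP+ cells. Within pools, this held in each of them for the mesenchyme list only. The endothelium list was carried by 0 cells of either sort in pool 1, and the macrophage list by 0 cells of either sort in pool 2. The pan-leukocyte list differed less and not in the same direction in every pool. The mesenchyme list, with fibrillar collagens and *Pdgfrb*, was carried by 32 of 80 Lgr5-GFP+ cells (40%, 29.2 to 51.6) and by 3 bulk cells (1.89%, 0.391 to 5.42). The endothelium list was carried by 20 cells (25%, 15.99 to 35.9) and by 1 cell (0.629%, 0.0159 to 3.45). The macrophage list was carried by 17 cells (21.3%, 12.9 to 31.8) and by 3 cells (1.89%). The pan-leukocyte list was carried by 17 (21.3%, 12.9 to 31.8) and 24 cells (15.1%, 9.92 to 21.6), whose intervals overlap. By pool these were 3 of 13, 1 of 27, 6 of 19, 3 of 14 and 4 of 7 Lgr5-GFP+ cells. In bulk they were 1 of 34, 1 of 34, 7 of 33, 9 of 34 and 6 of 24 cells. The lists of blood progenitors and granulocytes lay on the bulk side. The blood stem and progenitor list, with *Kit* and *Gata2*, was carried by 4 Lgr5-GFP+ cells (5%, 1.38 to 12.3) and 48 bulk cells (30.2%, 23.2 to 37.96), and the granulocyte-monocyte list, with the azurophil granule genes *Mpo* and *Elane*, by 0 and 10 cells (6.29%, 3.06 to 11.3). Of the blood stem and progenitor carriers, 2 of 4 and 28 of 48 had exactly 3 genes of the list above 10 reads. The erythroid list was also carried by 2 of the 4 and by 41 of the 48, so these carriers are not read as a cell type. The megakaryocyte list was carried by 6 and 5 cells (7.5% and 3.15%), whose intervals overlap (2.80 to 15.6 and 1.03 to 7.19).

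**Figure D1:**
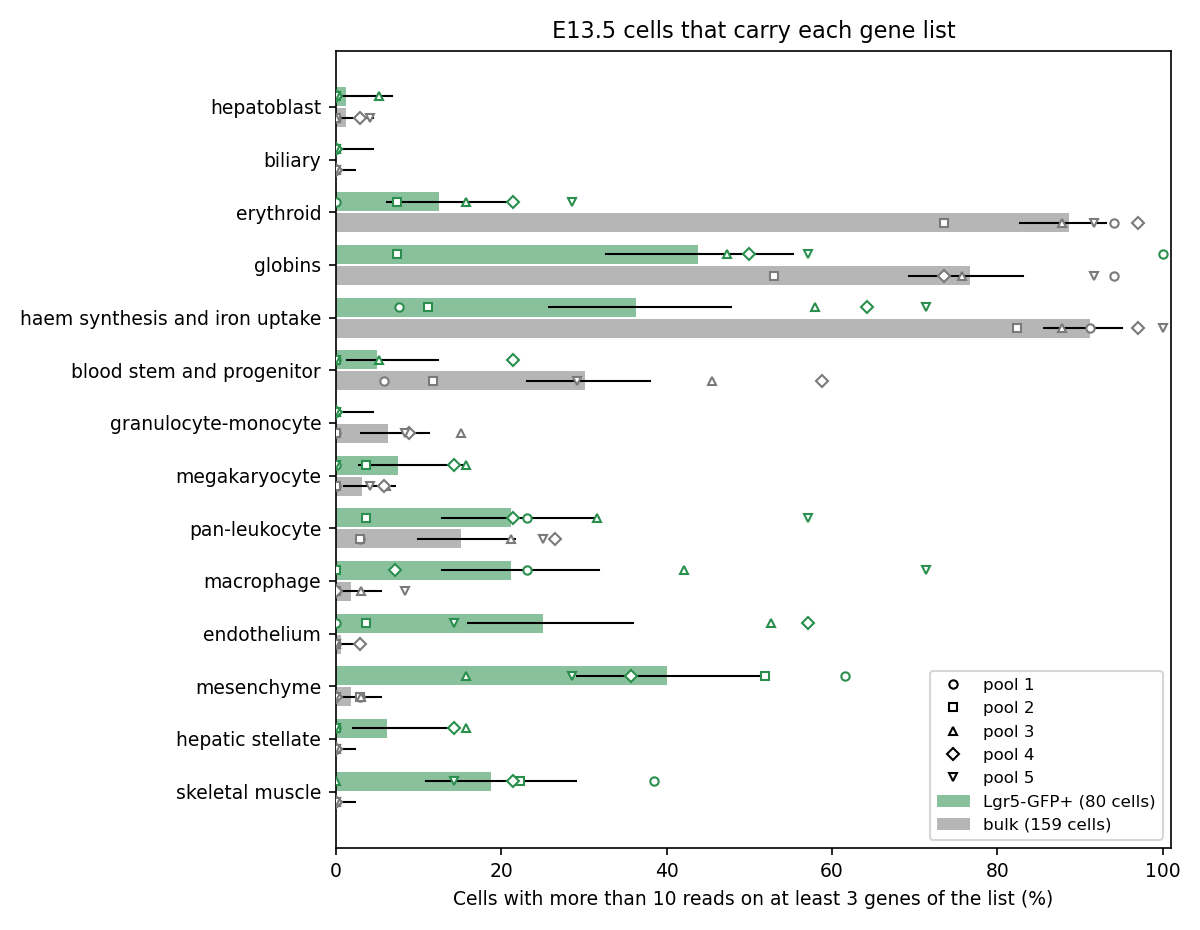
Percent of the 80 Lgr5-GFP+ cells (green bars) and the bulk cells (grey bars) that carried each gene list, with lines for the exact 95% interval over all cells and open symbols for the 5 library pools. The erythroid list was carried by 12.5% and 88.7% of the cells, and for this list the pool symbols of the 2 sorts stay apart; the skeletal muscle list was chosen after seeing the data.

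Each cell was then given a leading list, the carried list with the largest share of its detected genes above 10 reads among 9 lists (hepatoblast, erythroid, megakaryocyte, pan-leukocyte, mesenchyme, mesothelium, endothelium, neural and muscle). Among bulk cells, erythroid genes led in 83.02% (76.3 to 88.5) and leukocyte genes in 13 (8.18%, 4.43 to 13.6), and 8 cells, all from pool 2, carried none of the lists. Among Lgr5-GFP+ cells, mesenchyme genes led in 28 of 80 (35%, 24.7 to 46.5), endothelial genes in 16 (20%, 11.9 to 30.4), leukocyte genes in 12 (15%, 7.998 to 24.7), erythroid genes in 4 (5%, 1.38 to 12.3), megakaryocyte genes in 3 and muscle genes in 2. A further cell had 2 lists tied, and 14 cells (17.5%, 9.91 to 27.6) carried none. The hepatoblast list led in 0 cells of either sort.

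The makeup of both sorts differed between pools. Endothelial genes led in 0, 0, 9, 6 and 1 Lgr5-GFP+ cells of pools 1 to 5, and mesenchyme genes in 8, 13, 3, 2 and 2. In pools 1 and 2 together, mesenchyme genes led in 21 of 40 Lgr5-GFP+ cells (52.5%, 36.1 to 68.5), endothelial genes in 0 of 40 and no list in 14 of 40 (35%). In pools 3, 4 and 5, these numbers were 7 of 40 (17.5%, 7.34 to 32.8), 16 of 40 (40%, 24.9 to 56.7) and 0 of 40. Erythroid genes led in 82.4% of the bulk cells of pools 1 and 2 and in 83.5% of those of pools 3, 4 and 5, but other lists differed between these bulk cells. The blood stem and progenitor list was carried by 6 of 68 bulk cells of pools 1 and 2 (8.82%, 3.31 to 18.2) and by 42 of 91 of pools 3, 4 and 5 (46.2%, 35.6 to 56.9). The pan-leukocyte list was carried by 2 of 68 (2.94%, 0.358 to 10.2) and by 22 of 91 (24.2%, 15.8 to 34.3), and no list led in 8 of 68 (11.8%, 5.22 to 21.9) and in 0 of 91. Pool, sequencing run and any sort behind a pool cannot be told apart here, and the values of endothelium-led cells below rest on pools 3, 4 and 5.

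**Figure D2:**
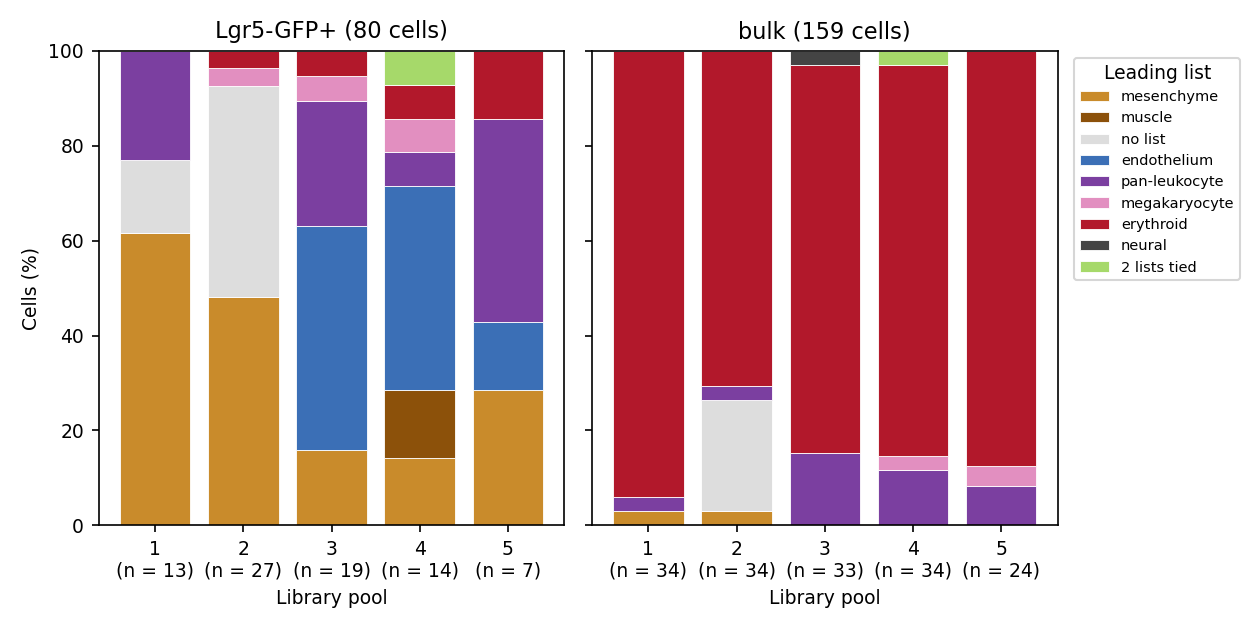
Percent of cells of each library pool by leading list, for 80 Lgr5-GFP+ cells (left) and the bulk cells (right); n under each bar is the number of cells. Bulk bars are mainly erythroid in all 5 pools, while the Lgr5-GFP+ bars of pools 1 and 2 hold 0 cells led by endothelial genes and those of pools 3, 4 and 5 hold 16.

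Over all genes, the reads that a sort's cells held on each gene were added up and scaled to 1000000 reads on all genes (RPM), and levels were compared by differences on the log2 scale of (RPM + 1), Lgr5-GFP+ over bulk, which understates differences of low genes. Of 10496 measured genes (at least 3 reads in at least 5% of the cells, counted over the 2 sorts as 1 set), 922 were more than 2-fold higher in Lgr5-GFP+ cells with the same sign in all 5 pools (8.78%) and 1191 were lower (11.3%). Since the filter pooled the sorts, a gene could pass through its high sort alone; 606 of the 922 and 1022 of the 1191 passed it in each sort. Without the rule on pools, 2676 were higher and 2110 lower. The median difference over all measured genes was -0.03, and -0.26 with TMM scaling. RPM does not divide by gene length, so levels of different genes are not compared. Pairs of levels give Lgr5-GFP+ cells first, except where bulk cells are named first, as in the account of bulk-side and erythroid genes.

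**Figure D3:**
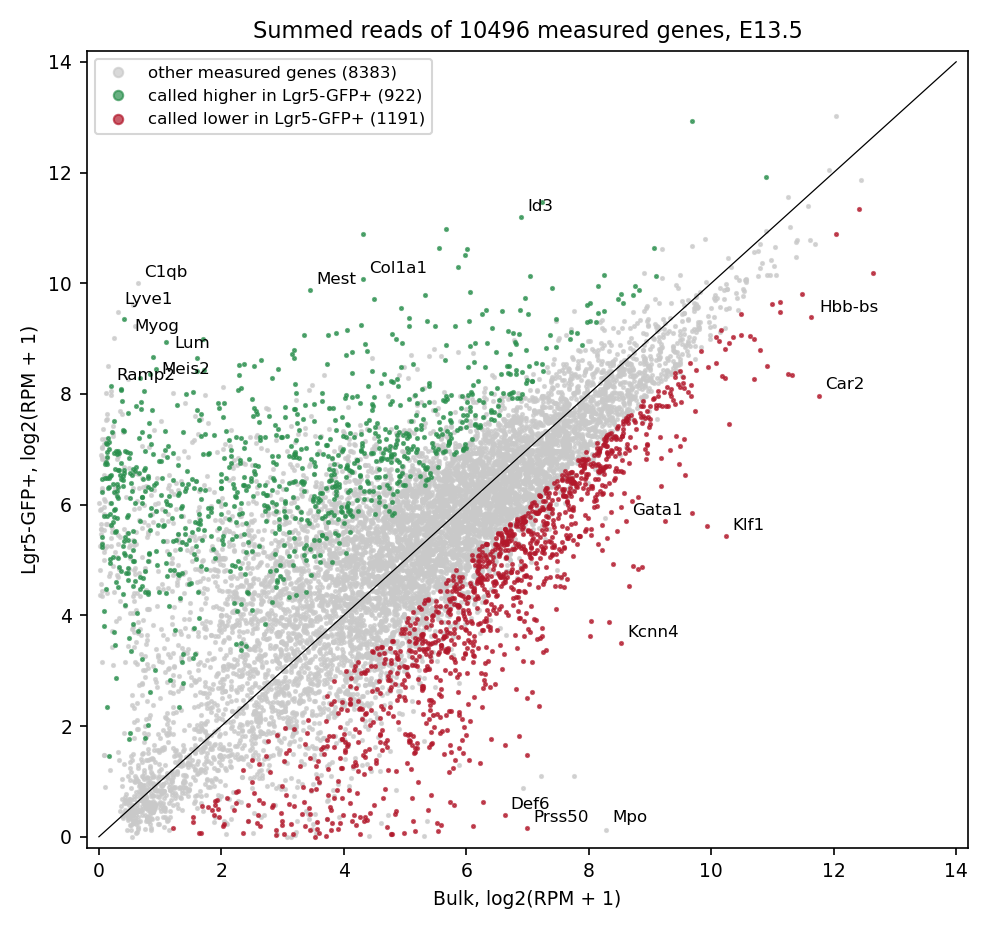
Level of 10496 measured genes in E13.5 bulk cells (x axis) and Lgr5-GFP+ cells (y axis), both as log2(RPM + 1) of summed reads, with the line of equality; green and red points are the 922 and 1191 genes called higher and lower. *Myog*, *Lum* and *Meis2* stand far above the line, *Klf1*, *Car2* and *Prss50* far below it, and *C1qb* and *Lyve1* are not called because their difference was 0.00 in pool 2.

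Among the genes called, the 15 furthest on the Lgr5-GFP+ side were, in order, *Myog*, *Ramp2*, *Lum*, *Meis2*, *Ldb2*, *Hs6st2*, *Igfbp5*, *Fbxl7*, *Car3*, *Dab2*, *Igfbp2*, *Capn6*, *Pdlim4*, *Colec12* and *Cdon*, with log2 differences from 8.95 to 7.16. *C1qb* (9.37), *Lyve1* (9.16) and *Ppbp* (9.06), a platelet chemokine, lay further than *Myog* but were not called for want of the same sign in all pools, and 17 such genes lay further than *Cdon*. Of the 15, 11 passed the filter on low counts through the Lgr5-GFP+ cells alone. *Myog* (chr1:134289989-134292548, GRCm38.p6) encodes myogenin, a transcription factor of differentiating skeletal muscle. It had 915, 455, 0.0865, 1926 and 62.6 RPM in Lgr5-GFP+ cells of pools 1 to 5 and 0.3396, 0.315, 0.0320, 0.758 and 0.0759 RPM in bulk cells. It was high in 4 pools and near 0 in both sorts in pool 3, so its call in pool 3 rests on a few reads. A single cell of pool 4, led by muscle genes, held 34540 of its 61692 reads (55.99%). Without that cell *Myog* stood at 294 RPM over all Lgr5-GFP+ cells and at 1.15 RPM in pool 4, and its log2 difference was 7.79 in place of 8.95. *Cdon* likewise had 50.1% of its reads in 1 cell of pool 2, and its difference was 6.19 without it. *Ramp2* (chr11:101246028-101259546), a co-receptor for adrenomedullin in endothelium, had 0.0692, 4.19, 624, 489 and 340 RPM against at most 0.415 RPM in any bulk pool. It was near the bulk level in pool 1. *Lum* (chr10:97565128-97572703), a collagen-binding proteoglycan of connective tissue, had 557, 334, 714, 309 and 660 RPM against 3.89, 0.653, 0.447, 0.0812 and 0.1898 RPM. The pools of the 2 sorts did not overlap. Over all 10496 measured genes, 418 had every Lgr5-GFP+ pool above every bulk pool and 590 had every one below. *Meis2* (chr2:115863064-116065839), a homeobox transcription factor, had 338, 421, 208.8, 740 and 298 RPM against at most 1.59 RPM, passed 10 reads in 35 of 80 Lgr5-GFP+ cells and in 0 bulk cells, and again did not overlap between the sorts in any pool.

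Among the genes called, the 15 furthest on the bulk side were *Prss50*, *Def6*, *Ikzf2*, *Sapcd2*, *Tfr2*, *Runx3*, *Rassf7*, *Hdac10*, *Ydjc*, *Pkhd1l1*, *Zkscan14*, *Steap3*, *Kcnn4*, *Spn* and *Tac2*, from -6.84 to -4.90. *Mpo* (-8.16) lay further than *Prss50*, and 6 genes lay further than *Tac2*, without a call. Of the 15, 12 passed the filter through the bulk cells alone. *Prss50* (chr9:110857967-110864629) encodes a serine protease of the trypsin family. It had 52.4 to 287 RPM in the bulk cells of the 5 pools and at most 0.346 RPM in any Lgr5-GFP+ pool. *Def6* (chr17:28207778-28228608), which encodes a guanine nucleotide exchange factor of blood cells, had 86.8, 98.2, 111.1, 116.4 and 70.2 RPM against at most 0.725 RPM. Neither gene overlapped between the sorts in any pool, as was so for 590 of the 10496 measured genes on the bulk side. *Tfr2*, a transferrin receptor of erythroid cells and hepatocytes, had 126.5 RPM in bulk and 1.77 RPM in Lgr5-GFP+ cells, *Steap3*, the ferrireductase of erythroid endosomes, had 114.8 and 2.53 RPM, and *Kcnn4*, the calcium-activated potassium channel of red cells, had 368 and 10.3 RPM. *Tac2* was near 0 in both sorts in pool 1, with 0.157 RPM in bulk and 0.0692 RPM in Lgr5-GFP+ cells, and it lost its call without the bulk cell of pool 2 that held 27.9% of its reads. Without 1 bulk cell of pool 2 with 42.6% of its reads, *Pkhd1l1* had a difference of -4.33 in place of -5.10.

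**Figure D4:**
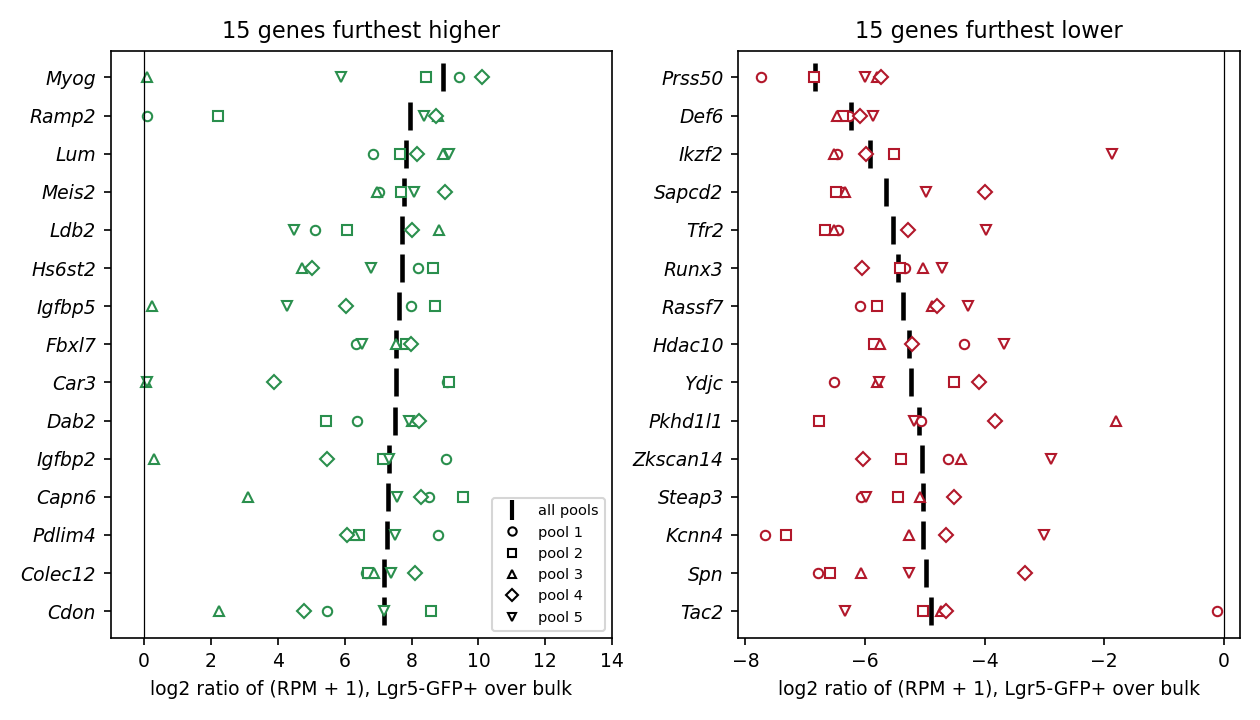
Difference in level, log2 of (RPM + 1) in Lgr5-GFP+ over bulk, of the 15 called genes furthest higher (left) and furthest lower (right), with a black bar for all pools and open symbols for the 5 library pools. The bars run from 8.95 (*Myog*) to 7.16 (*Cdon*) and from -6.84 (*Prss50*) to -4.90 (*Tac2*), and *Myog*, *Ramp2*, *Igfbp5*, *Car3* and *Igfbp2* have a pool close to 0.

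The promoters of the genes at the 2 ends are shown so that their letters can be set beside factors that differed between the sorts, such as *Gata1* and *Klf1*. They are taken from RefSeq on GRCm38.p6, 250 bases before to 50 after the start, in the direction of transcription; *Ramp2* and *Lum* had no entry, and the first of 2 entries was used for *Prss50*. Capitals mark matches, on either strand, to AGATAA for GATA factors, CCACACCC for KLF1, GAGGAAGT for PU.1 or CTTTGAA for TCF/LEF factors.
Myog, chr1:134289754-134290053, + strand: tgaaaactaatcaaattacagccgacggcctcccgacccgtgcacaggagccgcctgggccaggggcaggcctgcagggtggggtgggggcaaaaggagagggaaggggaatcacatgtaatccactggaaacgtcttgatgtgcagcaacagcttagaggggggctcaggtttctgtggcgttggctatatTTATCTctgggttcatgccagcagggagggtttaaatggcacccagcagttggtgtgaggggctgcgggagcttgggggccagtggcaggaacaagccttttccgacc
Meis2, chr2:116064570-116064869, - strand: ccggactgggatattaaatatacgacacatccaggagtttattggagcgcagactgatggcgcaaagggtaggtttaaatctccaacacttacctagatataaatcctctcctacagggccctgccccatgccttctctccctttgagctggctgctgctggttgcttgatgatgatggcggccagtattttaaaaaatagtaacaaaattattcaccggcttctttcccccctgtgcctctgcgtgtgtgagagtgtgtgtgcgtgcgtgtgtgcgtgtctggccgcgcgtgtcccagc
Prss50, chr9:110857714-110858013, + strand: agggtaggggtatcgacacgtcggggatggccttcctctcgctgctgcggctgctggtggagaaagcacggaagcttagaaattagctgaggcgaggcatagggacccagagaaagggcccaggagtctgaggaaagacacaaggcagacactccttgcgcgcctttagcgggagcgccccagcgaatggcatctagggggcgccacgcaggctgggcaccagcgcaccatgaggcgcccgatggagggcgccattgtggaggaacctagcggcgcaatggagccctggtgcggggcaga
Def6, chr17:28207528-28207827, + strand: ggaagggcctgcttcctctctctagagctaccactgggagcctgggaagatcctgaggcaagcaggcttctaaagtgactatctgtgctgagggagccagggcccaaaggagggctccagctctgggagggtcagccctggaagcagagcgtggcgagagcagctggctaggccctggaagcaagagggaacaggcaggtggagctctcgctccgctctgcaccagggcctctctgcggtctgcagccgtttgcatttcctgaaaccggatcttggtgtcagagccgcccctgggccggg
*Myog* held 1 match, to the GATA letters on the minus strand from 58 bases before the start, and the others held 0. The GATA letters stood in 11.2% of all 32851 promoters of the table, in 6.00% of the 8005 promoters of measured genes, in 7.88% of 939 promoters of genes called lower and in 4.09% of 709 promoters of genes called higher. The shares for KLF1 were 3.56%, 3.55%, 4.05% and 3.53%, those for PU.1 3.20%, 2.96%, 3.09% and 3.81%, and those for TCF/LEF 5.14%, 3.59%, 4.26% and 2.26%, in the same order. A match is a description of letters and was not tested as a site.

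Erythroid genes were lower in Lgr5-GFP+ cells across the whole list. Of the 20 genes, 18 were called lower and 0 higher, where 11.3% of all measured genes were called lower, and the median difference was -3.10 against -0.03 over all genes. *Klf1*, an activator of globin genes, had 1205 RPM in bulk and 42.1 RPM in Lgr5-GFP+ cells (-4.81), and passed 10 reads in 4 of 80 Lgr5-GFP+ cells. *Gata1*, the erythroid master regulator, had 390 and 50.9 RPM (-2.92), and *Epor* had 314 and 41.4 RPM (-2.90). These reads came from few Lgr5-GFP+ cells. The 4 cells led by erythroid genes held 88.7% of the *Klf1* reads, at 796 RPM, and 49.7% of the *Gata1* reads, at 540 RPM. The 3 cells led by megakaryocyte genes held another 49.5% of the *Gata1* reads, at 548 RPM, with *Klf1* at 1.16 RPM. In the 28 cells led by mesenchyme genes *Klf1* and *Gata1* stood at 1.22 and 0.193 RPM.

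Genes of haem production and of early and late erythroid stages lay on the same side. Of 12 measured genes of haem synthesis and iron uptake, 10 were lower and 0 higher (median -2.38), among them *Alad*, which joins aminolevulinic acid, with 2443 and 326 RPM in bulk and Lgr5-GFP+ cells, and *Fech*, which inserts the iron, with 419 and 65.9 RPM. *Alas2*, the erythroid enzyme of the opening step, is listed at 0 in every cell. This 0 was not read as absent expression, and whether it comes from the counting was not tested. Late maturation genes counted 9 lower of 16 (median -1.75), with *Car2*, a carbonic anhydrase of red cells, at 3470 and 249.8 RPM (-3.79) and *Tspo2* at 144.2 and 4.16 RPM (-4.82). Early erythroid and progenitor genes counted 6 lower of 11 (median -1.62), with *Myb* at 83.4 and 2.39 RPM (-4.64) and *Bcl11a*, a repressor of embryonic globins, at 141.2 and 10.9 RPM (-3.58). None of these 3 lists had a gene called higher, where 8.78% of all measured genes were called higher and 11.3% lower. The lists are not independent of each other. *Tal1* and *Slc4a1*, both called lower, are in the erythroid and the late list, and *Car1*, also called lower, is in the early and the late list.

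Globin reads were spread more widely than the other erythroid genes. The globin list was carried by 76.7% of bulk cells (69.4 to 83.1) and by 35 of 80 Lgr5-GFP+ cells (43.8%, 32.7 to 55.3), and in pool 1 by 13 of 13 Lgr5-GFP+ cells, of which 0 carried the erythroid list. *Hbb-bs* passed 10 reads in 14 of the 28 mesenchyme-led Lgr5-GFP+ cells, at 14.1 RPM over those cells, against 11388 RPM over the 4 erythroid-led ones. Median depth was 1094064 and 1005740 reads in these 2 sets. Low globin counts in single cells were not read as expression by those cells. The source of these reads, with any part of free RNA in them, was not tested. Over all cells 4 of 7 globins were called lower (median -1.70), where 11.3% of all measured genes were called lower. The adult genes *Hbb-bs* and *Hba-a1* had 3169 and 1658 RPM in bulk and 673 and 306.5 RPM in Lgr5-GFP+ cells, while the embryonic *Hba-x* had 49.7 and 55.6 RPM. *Hba-a1* and *Hba-a2*, like *Hbb-bs* and *Hbb-bt*, are near-identical copies, and how reads were split between them is uncertain.

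Mesenchyme genes made up the largest set among the Lgr5-GFP+ cells. Of 13 measured genes of the list, 12 were called higher and 0 lower, where 8.78% of all measured genes were called higher, with a median of 5.22. *Col1a1*, *Col1a2* and *Col3a1*, chains of the fibrillar collagens, had 1077, 839.5 and 1253 RPM in Lgr5-GFP+ cells and 18.8, 21.5 and 57.5 RPM in bulk cells. *Col1a1* was unevenly placed: in pool 1 the log2 difference was 1.17, and in pool 5 it was 10.19. *Mest*, an imprinted gene of fetal mesoderm, passed 10 reads in 42 Lgr5-GFP+ and 2 bulk cells (6.42), and of the 42, 19 were led by mesenchyme and 16 by endothelial genes. It stood at 672 RPM in mesenchyme-led and at 2928 RPM in endothelium-led cells, which held 69.8% of its reads. *Des*, the muscle intermediate filament desmin, passed 10 reads in 13 and 0 cells (6.39), and *Ptn*, the growth factor pleiotrophin, in 21 and 10 cells (2.77). *Pdgfra* was the gene of the list without a call (1.33), with 6.54 RPM in bulk, and was lower in pool 1.

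Cells led by mesenchyme genes varied among themselves. Of the 28 Lgr5-GFP+ cells, *Col3a1* passed 10 reads in 22, *Col1a1* in 19, *Ptn* in 15, *Lum* in 13 and *Dcn*, decorin, in 12, and 0 of the 28 carried another leading list. The hepatic stellate list, with *Reln*, *Lhx2* and *Ngfr*, was carried by 5 of the 28 and by 0 bulk cells, which allows up to 1.89%, and these cells came from pools 3 (3 cells) and 4 (2 cells). *Reln*, the secreted protein reelin, had 94.4 and 0.333 RPM over all Lgr5-GFP+ and bulk cells (6.16) and was the measured gene of the list called higher. A single mesenchyme-led cell of pool 2 held 53.2% of its reads, and the difference was 5.10 without it. Mesothelium genes led in 0 cells, and *Wt1*, a transcription factor of mesothelium, had 80.3 and 1.21 RPM without the same sign in all pools.

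Skeletal muscle genes stood among the Lgr5-GFP+ cells in a way that the muscle list with 7 genes caught only in part, so a list of 12 skeletal muscle genes was added after the values were seen. It was carried by 15 of 80 Lgr5-GFP+ cells (18.8%, 10.9 to 29.03), of which 5, 6, 0, 3 and 1 came from pools 1 to 5, and by 0 bulk cells. *Myod1*, the muscle determination factor, passed 10 reads in 16 and 0 cells, *Neb*, the giant thin-filament protein nebulin, in 14 cells and 1 cell, *Myf5* in 8 and 0 and *Pax3* in 5 and 0. *Myog* passed 10 reads in 13 Lgr5-GFP+ cells and reached 34540 reads in 1 of the 2 cells led by muscle genes. Of the 15 carriers, 6 were led by mesenchyme genes and 5 were among the 14 cells without a leading list. All but 2 of those 14 cells came from pool 2. Their median of 3570 genes was below the 4358 of mesenchyme-led cells, and *Cdkn1c*, an imprinted inhibitor of the cell cycle named here after its values were seen, passed 10 reads in 14 of 14 of them and in 25 of 28 mesenchyme-led cells. In pool 3 the list's summed level was 27.7 RPM in Lgr5-GFP+ cells and 7.60 RPM in bulk cells, and no cell carried it.

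Endothelial genes were found in a compact set of Lgr5-GFP+ cells. The 16 cells led by the endothelium list had 10 or 11 of its 11 genes above 10 reads, and all 16 carried a list of 10 liver sinusoid endothelial genes that was added after the values were seen, against 0 bulk cells. *Lyve1*, a hyaluronan receptor, *Stab2*, a scavenger receptor, *Gpr182* and *Oit3* each passed 10 reads in 16 of 16 cells, and *Flt1*, a VEGF receptor, in 15. Over these cells *Lyve1* stood at 3184 RPM, against 0 reads in the 28 mesenchyme-led cells. *Pecam1*, which encodes the gated antigen CD31, also passed 10 reads in 16 of 16, at 638 RPM, while *Ptprc*, which encodes CD45, had 0 reads. *Pecam1*, *Lyve1* and *Stab2* belong to the list by which these cells were chosen, so their counts of cells are largely set by that choice. *Gpr182*, *Oit3* and *Flt1* are not in that list. Protein levels were not measured in these files.

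Over all cells, endothelial genes had a median difference of 6.71, but only *Pecam1*, *Kdr* and *Esam* of 11 were called higher and 0 lower. The median of the list was 0 in pool 1 and 0.14 in pool 2, so the signs of these 3 genes there can rest on few reads. Of all measured genes, 8.78% were called higher. *Kdr*, the main VEGF receptor, had 255 and 1.67 RPM and passed 10 reads in 21 Lgr5-GFP+ and 2 bulk cells. *Cdh5*, the endothelial cadherin, had 198.6 and 0.0903 RPM (7.52) and *Lyve1* 713 and 0.248 RPM (9.16), both without a call. In pools 1 and 2, where 0 Lgr5-GFP+ cells were led by endothelial genes, the log2 difference of *Lyve1* was 0.00 in both pools. The *C1qb* transcript, a complement gene of macrophages, passed 10 reads in 10 of the 16 endothelium-led cells at 203.3 RPM, in 12 of the 12 leukocyte-led Lgr5-GFP+ cells at 5970 RPM and in 0 of the 28 mesenchyme-led cells. The part of free RNA or of cell fragments in these reads was not tested.

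Leukocyte genes led in both sorts, in 12 Lgr5-GFP+ and 13 bulk cells, and this was the only list that led at least 10 cells of each. In these cells macrophage genes were high in the Lgr5-GFP+ sort and granulocyte-monocyte and progenitor genes in the bulk sort. When all cells were clustered, the 12 Lgr5-GFP+ cells lay in a cluster of 13 Lgr5-GFP+ and 0 bulk cells. The 13 bulk cells lay in 2 other clusters, 11 in one of 62 cells and 2 in one of 65 cells, in which erythroid genes led in 46 and 55 cells, so that the values below compare cells of different clusters. The 14 genes of the macrophage list summed to 9343 to 24578 RPM per Lgr5-GFP+ cell (median 16300) and to 0.845 to 1735 RPM per bulk cell (median 156.9), so that the sorts did not overlap. The granulocyte-monocyte list summed to 0 to 449 RPM (median 0.482) and to 0 to 49671 RPM (median 2617); 1 bulk cell was at 0. *Ptprc*, the pan-leukocyte antigen CD45 that the gate was to exclude, passed 10 reads in 7 of 12 and 8 of 13 cells. It is 1 of the 10 genes of the list by which these cells were chosen.

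**Figure D5:**
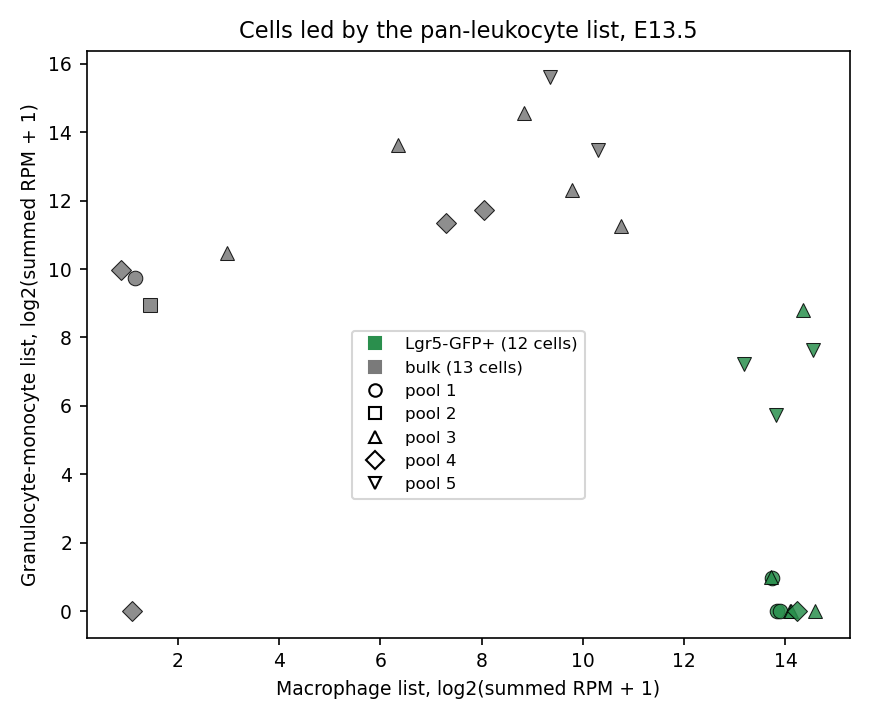
Summed level per cell of the macrophage list (x axis) and the granulocyte-monocyte list (y axis), both as log2(RPM + 1), in the 12 Lgr5-GFP+ (green) and 13 bulk (grey) cells led by leukocyte genes; symbols give the library pool. All Lgr5-GFP+ cells lie at 9343 RPM or more of macrophage genes and all bulk cells at 1735 RPM or less.

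Among these leukocyte-led cells, 1852 genes were more than 2-fold higher in the Lgr5-GFP+ cells (17.6% of 10496) and 2901 lower (27.6%), with a median of -0.26; the sign was required only in pool 3, the pool with at least 5 such cells of each sort. The 8 genes furthest higher were *C1qb*, *C1qc*, *Spic*, *Lgmn*, *C1qa*, *Marco*, *Cxcl2* and *Cd5l*. *C1qb* stood at 5970 and 0.430 RPM and passed 10 reads in 12 of 12 and 0 of 13 cells. *Spic*, the transcription factor of macrophages that recycle red cell iron, had 1572 RPM and passed 10 reads in 9 of 12 cells, against 0 reads over the 13 bulk cells, which makes it at least 7304-fold higher (floor of 3 reads over the group). *Marco*, a scavenger receptor, was at least 4913-fold higher and *Timd4*, a receptor for dying cells, at least 2487-fold higher by the same floor. The 8 genes furthest lower were *Mpo*, *Prtn3*, *S100a8*, *S100a9*, *Slc24a3*, *Ramp1*, *Mctp1* and *S1pr1*. *Mpo*, myeloperoxidase, had 0 reads over the 12 Lgr5-GFP+ cells and 3927 RPM in bulk cells, where it passed 10 reads in 11 of 13, and was at least 19718-fold lower. *S100a8*, a calcium-binding protein of neutrophils, had 2.59 and 2733 RPM but passed 10 reads in 4 of the 13 bulk cells.

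Functional groups followed in these cells. All 13 measured macrophage genes were higher, as were 11 of 12 phagocytosis and lysosome genes, with the cathepsin *Ctsb* at 5301 and 238 RPM, *Hmox1*, which breaks down haem, at 3543 and 268 RPM, and *Slc40a1*, the iron exporter ferroportin, at 1394 and 30.3 RPM. *Lyz2* (-0.29) was the gene of that list without a call. The 3 measured granulocyte-monocyte genes were lower, and so were 4 of 6 blood stem and progenitor genes. *Kit*, *Gata2* and *Myb* had 0 reads over the 12 Lgr5-GFP+ cells and 160, 299 and 117.4 RPM in the 13 bulk cells. Of the pan-leukocyte genes, 3 were higher and 2 lower of 10, and *Spi1*, which encodes PU.1, had 1487 and 1033 RPM (0.53). Globins were higher in the Lgr5-GFP+ cells for 6 of 7 genes, with summed levels of 84.6 to 4180 RPM per cell and 5.74 to 771 RPM per bulk cell, and the erythroid list had 4 higher and 4 lower of 20. In these cells 17.6% of all measured genes were higher and 27.6% lower. The pan-leukocyte and erythroid counts lie near those shares and are not read as results about the lists. Of the 12 Lgr5-GFP+ cells, 9 carried no other leading list, as did 8 of the 13 bulk cells.

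Over all cells, the same macrophage genes were called for 5 of 13 (*Adgre1*, *Cd68*, *Marco*, *Fcgr3* and *Cd86*), with 0 lower and a median of 6.24. In pool 2, which held 0 macrophage carriers, the median difference of the list was 0. The sign of the called genes in that pool can therefore rest on few reads, and why the others had no call was not tested. By pool, the macrophage list was carried by 3 of 13, 0 of 27, 8 of 19, 1 of 14 and 5 of 7 Lgr5-GFP+ cells. A list of 12 genes of liver resident macrophages, added after the values were seen, was carried by 21 Lgr5-GFP+ and 0 bulk cells. Of these 21 cells, 12 were led by leukocyte, 5 by endothelial, 3 by mesenchyme and 1 by erythroid genes. Carriers of the macrophage list were likewise mixed, with 12 cells led by leukocyte, 4 by endothelial and 1 by erythroid genes. Neither list therefore picks out leukocyte-led cells alone. Platelet factor *Pf4* was the called megakaryocyte gene of 7 (1898 and 18.9 RPM, 6.57) and passed 10 reads in 22 Lgr5-GFP+ and 15 bulk cells, more than the 6 and 5 cells that carried the megakaryocyte list. A single megakaryocyte-led cell held 40.4% of its Lgr5-GFP+ reads, and the difference was 5.85 without it. The calls of both lists stand beside 8.78% of all measured genes called higher. With 1 gene of 7 called, the megakaryocyte list is not read as higher.

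*Lgr5* transcripts were found in few of the cells sorted for GFP from its locus. More than 10 *Lgr5* reads were present in 3 of 80 Lgr5-GFP+ cells (3.75%, 0.780 to 10.6) and in 1 bulk cell (0.629%, 0.0159 to 3.45), and the intervals overlap. Any read was present in 31 and 27 cells (38.8%, 28.1 to 50.3, and 16.98%, 11.5 to 23.7). Summed over cells there were 2177 reads (23.2 RPM, 22.2 to 24.2) and 73 reads (0.412 RPM, 0.323 to 0.518), but 98.4% of the Lgr5-GFP+ reads came from 3 cells. These held 1126 reads (pool 2, led by mesenchyme genes), 702 reads (pool 4, mesenchyme and muscle tied) and 313 reads (pool 3, led by leukocyte genes with 12 macrophage genes above 10 reads), and the next cell held 3. The bulk cell held 39 reads, was led by leukocyte genes and came from pool 4. The 4 cells had 0 or 1 hepatoblast gene above 10 reads. GFP itself has no row in the count table.

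Other genes of the receptor's pathway were sparse, and their few calls stand beside 8.78% of all measured genes called higher. Of 9 Lgr receptors, R-spondins and E3 ligases, 3 were measured, and *Rspo3*, a secreted R-spondin, was called higher (66.6 and 17.5 RPM, 12 Lgr5-GFP+ cells and 1 bulk cell above 10 reads), while *Lgr4* (86.9 and 34.9 RPM) and *Znrf3*, a ligase that removes Wnt receptors, (61.2 and 41.7 RPM) differed in sign between pools. Without the cell with the most reads, which held 24.1% of them, *Rspo3* lost its call. Of 5 measured Wnt target genes, *Nkd1*, a feedback inhibitor (21.2 and 0.0846 RPM), and *Ccnd1*, cyclin D1 (21.8 and 6.39 RPM), were higher and 0 were lower, and *Myc* had 223 and 230 RPM. A single cell held 55.02% of the Lgr5-GFP+ reads of *Nkd1* and another 52.2% of those of *Ccnd1*, and without these cells the differences were 3.30 in place of 4.36 and 0.65 in place of 1.63, which ends the call of *Ccnd1*. *Axin2*, a widely used Wnt target, passed 10 reads in 2 cells and 1 cell. The Wnt target list was carried by 8 of 80 cells (10%, 4.42 to 18.8) and by 1 bulk cell (0.629%).

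Genes that the study used to tell cell groups apart split between the sorts. That list was chosen by the study on these samples and is not independent evidence of its direction. *Id3*, an inhibitor of basic helix-loop-helix factors, had 2332 and 118.3 RPM (4.29), the growth factor *Mdk* 1580 and 63.7 RPM (4.61) and the glypican *Gpc3* 217 and 7.23 RPM (4.73), all called higher in Lgr5-GFP+ cells. *Car2* and *Bcl11a* were called lower, with the values given above. The 5 others had no call, among them *Cd44* with 183.7 and 135.3 RPM. Over all measured genes, 8.78% were called higher and 11.3% lower.

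DNA replication genes were lower in part and mitosis genes mostly without a call. The DNA replication list was carried by 55 of 80 Lgr5-GFP+ cells (68.8%, 57.4 to 78.7) and 97.5% of bulk cells (93.7 to 99.3), and the mitosis list by 44 (55%, 43.5 to 66.2) and 89.9% (84.2 to 94.1). Of 13 replication genes, *Mcm2*, *Mcm4*, *Mcm7* and *Pcna* were lower and 0 higher (median -1.08), with *Pcna*, the sliding clamp, at 232 and 471 RPM. Of 14 mitosis genes *Ccna2* was lower (144.5 and 346 RPM), 0 were higher, and the median was -0.28. Of all measured genes 11.3% were called lower, a share that the mitosis genes did not exceed. *Pcna* and *Ccna2* lost their calls when the bulk cell with the most reads of each was left out.

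Several immediate early genes were higher in Lgr5-GFP+ cells, although the list was carried by like shares, 55 of 80 (68.8%, 57.4 to 78.7) and 70.4% (62.7 to 77.4). Of 12 immediate early and heat shock genes, *Fos*, *Jun*, *Egr1*, *Dusp1*, *Hspa1a* and *Zfp36* were called higher and 0 lower (median 1.96), where 8.78% of all measured genes were called higher. *Hspa1a* lost its call without 1 leukocyte-led cell of pool 3, which held 34.3% of its reads. *Fos* had 917 and 65.8 RPM and passed 10 reads in 34 Lgr5-GFP+ and 24 bulk cells, and *Egr1* had 292.5 and 40.98 RPM in 37 and 15 cells.

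At E10.5, the hepatoblast list was carried by 27.96% of Lgr5-GFP+ and 2.96% of bulk cells, the mesenchyme list by 62.6% and 66.5%, the endothelium list by 2.37% and 5.91% and the macrophage list by 0 cells of either sort. The erythroid list was carried by 2.37% and 19.7% of the cells, and more than 10 *Lgr5* reads were present in 29.4% and 2.46%. The hepatoblast list was unevenly placed at E10.5: by pool, 1 of 45, 36 of 47, 8 of 40, 6 of 41 and 8 of 38 Lgr5-GFP+ cells carried it. Most of its E10.5 carriers therefore came from pool 2. The difference between the stages was not tested.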

How the data were processed

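Single cells were sequenced with an adapted Smart-seq2 protocol as single-end reads. The values are counts of reads per gene and cell, deposited by the authors without normalisation. According to the submitters' processing notes and the study's methods, reads were aligned with STAR 2.6.0c to GRCm38.p6 with spike-in sequences added, uniquely aligned reads were counted with Subread 1.6.2 (featureCounts), and cells past limits on mitochondrial and spike-in reads, or under a number of detected genes set apart for each sorting experiment, were removed in Scanpy 1.3.3. The table held 54195 genes, of which 54128 had a name and 29213 were listed at 0 in all E13.5 cells, and 0 of its columns were left unused. A normalised table of 1766 genes was not used. Multi-mapped reads were not counted, which can lower near-identical genes.

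Reads were summed over the cells of a sort and scaled to RPM, with a pseudocount of 1 RPM. Genes were kept as measured where 5% or more of the cells, counted over both sorts as 1 set, held 3 reads or more, and were called past 2-fold with the same sign in all pools with at least 5 cells of each sort. Named were the 15 called genes furthest in each direction, 8 in each direction among leukocyte-led cells, *Lgr5* and any gene of the 29 gene lists. No replicate animals are labelled, so no test was made; reads were amplified without molecular identifiers, so Clopper-Pearson intervals of shares and Poisson intervals of sums cover counting error only. No doublet caller was run. The members and lists were chosen with earlier results of these data known, and 3 lists and the alternatives named as added were chosen after seeing the data.

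Python 3.11.15 (numpy 2.4.6, pandas 2.3.3, scipy 1.17.1, matplotlib 3.10.9) and R 4.3.3 were used, with edgeR 4.0.16 for TMM factors and DESeq2 1.42.0 for size factors only. On simulated counts for the comparison of E13.5 Lgr5-GFP+ with bulk cells, 200 of 200 changed genes among 10496 were recovered with 0 others called. All simulated cells shared the bulk profile, without cell types or pool differences, and large changes were given only to genes well above 0. The simulation checks the code and cannot show how the rule performs on mixed sorts, on uneven pools or on genes near 0. Alternatives covered read and gene limits, thinning to 100000 reads, scaling, pseudocounts, filters and leaving out pools or cells.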

Additional observations from a re-analysis of the deposited data

How the results depend on the processing

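The erythroid list was carried by more bulk than Lgr5-GFP+ cells, and the mesenchyme, endothelium and macrophage lists by more Lgr5-GFP+ than bulk cells, under each alternative run. Of 510 alternative values of the 30 named genes, 461 stayed within the spread between pools, 49 moved and 0 reversed, and the 32 of the leukocyte-led genes stayed. The spread is the standard deviation over pools, which was wide for some genes, as for *Myog* with pool differences from 0.07 to 10.1. The named genes were chosen for large differences with the same sign in all pools, so a count of 0 reversed was largely set by that choice. Without the cell with the most reads of a gene (added), 3 of the 30 named genes (*Myog*, *Cdon* and *Pkhd1l1*) moved by more than 1.5 times and 1 (*Tac2*) lost its call, as did 7 and 8 of 94 other called genes of the lists. No paired analysis was possible because the replicate numbers only name single cells and pair none; the differences within each pool, all of which hold both sorts, enter the rule on signs. The cause of the changes below was not tested.

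Without pools 3, 4 and 5, Lgr5-GFP+ cells carried the erythroid list in 5.0%, mesenchyme in 55%, endothelium in 2.5% and macrophage in 7.5%, and bulk cells endothelium and macrophage in 0%; mesenchyme led in 52.5%, endothelium in 0%, leukocyte genes in 7.5% and no list in 35% of Lgr5-GFP+ cells, and leukocyte genes in 2.94% and no list in 11.8% of bulk cells; 1797 genes were higher and 2548 lower. With pools 3, 4 and 5 only (added), Lgr5-GFP+ cells carried mesenchyme in 25%, endothelium in 47.5% and macrophage in 35%, mesenchyme led in 17.5%, endothelium in 40% and no list in 0%, bulk cells were led by mesenchyme or by no list in 0%, 1723 genes were higher and 1952 lower, and the median of the Lgr receptor and R-spondin list reversed to -0.14. With fewer pools the rule on signs is met by more genes by construction.

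With more than 2 reads in place of 10, the erythroid list was carried by 96.2% and mesenchyme by 27.7% of bulk cells, and mesenchyme by 72.5% and macrophage by 33.8% of Lgr5-GFP+ cells. With at least 4 genes, bulk shares were 80.5% for erythroid and 0% for endothelium and macrophage, and with at least 2 genes Lgr5-GFP+ shares were 52.5% for mesenchyme and 33.8% for macrophage. Thinned to 100000 reads, bulk shares were 81.13% for erythroid, 0% for endothelium and 0% for more than 10 *Lgr5* reads. Without cells that have no leading list (added), 93.4% of bulk cells carried the erythroid list. By the leading list of a cell's cluster, 98.11% of bulk cells were erythroid-led, 58.8% of Lgr5-GFP+ cells mesenchyme-led, 0% of bulk cells leukocyte-led and 0% of either sort without a list. Measured in at least 20% of cells, 382 genes were higher. Without cells carrying the pan-leukocyte list, that list's median reversed to -0.050. With any read counted, *Lgr5* was present in 38.8% and 16.98% of cells.

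Leaving out each pool in turn (added), the lowest and highest shares carrying a list in Lgr5-GFP+ and in bulk cells were 10.6% to 15.1% and 86.4% to 92.80% for erythroid, 33.96% to 47.5% and 1.59% to 2.4% for mesenchyme, 16.4% to 35.9% and 0% to 0.8% for endothelium, and 14.8% to 32.1% and 0.741% to 2.4% for macrophage. Shares led by a list were 4.11% to 5.97% and 80% to 86.4% for erythroid, 28.3% to 40.98% and 0.8% to 1.6% for mesenchyme, 11.5% (without pool 3) to 30.2% and 0% to 0% for endothelium, 11.5% to 22.64% and 6.35% to 9.6% for leukocyte genes, and 3.77% (without pool 2) to 22.95% and 0% (without pool 2) to 6.4% for no list. Genes numbered 1031 to 1282 higher and 1431 to 1565 lower.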
